A study of Mus musculus with 6 samples.

Results

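The genes described here were 10 immediate early genes, namely Fos, Fosb, Fosl2, Jun, Junb, Jund, Egr1, Egr2, Atf3 and Ier3. They were chosen by symbol as subunits of the transcription factor AP-1, as EGR and ATF factors, and as the early response gene Ier3. They are 10 of the 54532 genes in the deposited table, and all 10 passed the filter on low values that left 14807 genes for testing.

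Neutrophils from the bone marrow of C57BL/6J mice were challenged in culture with live Candida albicans, a yeast that causes invasive candidiasis, and RNA was sequenced after 6 h. The 3 WT libraries (replicates 1 to 3) came from wild-type cells, and the 3 PGRN KO libraries (replicates 4 to 6) came from cells of mice that lack Grn, the gene for the secreted glycoprotein progranulin (PGRN). Both genotypes received the yeast, with an infection ratio given as 1:1 in the labels and as 1:10 in the study's text on its RNA sequencing, so all values are levels after challenge and not inductions from rest. Neutrophils were enriched with magnetic beads against Ly-6G, WT and PGRN KO mice came from different suppliers, and nothing in the sources used here says that the cultures of a genotype came from separate mice, so p-values measure only the spread between these samples, which may be technical.

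AP-1 is a dimer of basic leucine zipper (bZIP) proteins. Fos proteins bind DNA only with a partner, usually a Jun protein, whereas Jun proteins can also pair with one another, and ATF proteins join the same network through their zippers. Immediate early genes are transcribed within minutes of a signal without new protein synthesis, mostly through serum response factor with its ternary complex factors, through CREB-type factors, and through MAP kinases that act on these proteins. Their messages are short-lived, and in phagocytes they follow the engagement of Toll-like and C-type lectin receptors. The study asked how PGRN affects the signalling of neutrophils that meet the fungus, including the ERK, JNK and p38 MAP kinases. By Western blot it reported more ERK phosphorylation, less JNK activation and like p38 phosphorylation in PGRN KO cells. The genes here are commonly used as transcriptional readouts of those kinases. Whether their levels at 6 h follow kinase activity was not tested.

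After 6 h with the yeast, 7 of the 10 genes were lower in PGRN KO than in WT neutrophils, namely Atf3, Egr1, Egr2, Fos, Jun, Junb and Fosl2. Atf3, Egr1 and Egr2 stood at 53.4%, 53.3% and 53.2% of their WT means, and Fos at 58.7%. None of the 10 was higher. Fosb, Jund and Ier3 did not pass the test, at 89.8%, 92.6% and 93.0% of WT. Over all genes tested, 9.95% were called lower and 7.94% higher in PGRN KO. A gene was called when limma on log2(FPKM + 1) gave an adjusted p under 0.05, where FPKM is the fragment count divided by gene length and library size. With the filter raised to a mean FPKM of 1, 17.3% of 9249 genes were called lower, and so were the same 7 of the 10. The median log2 fold change of the 10 genes was -0.57, against 0.0026 over all genes tested. In 9 of the 10 genes, all but Jund, every PGRN KO library lay below every WT library, a separation seen in 19.6% of all genes tested. When the libraries were scaled instead to their plain totals of fragments, 5 of the 10 (Fos, Jun, Egr1, Egr2 and Atf3) were called lower, beside 6.31% of all genes.

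**Figure D1:**
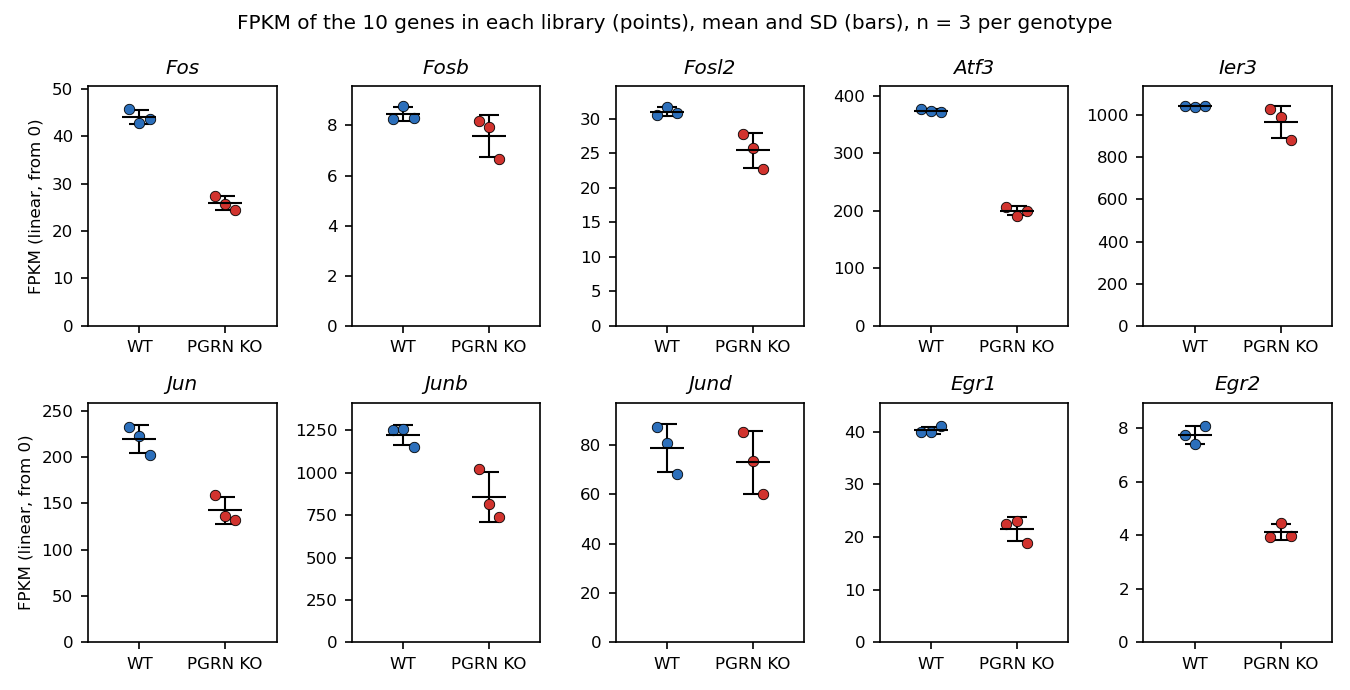
FPKM (linear axis from 0) of each of the 10 genes in the 3 WT and 3 PGRN KO libraries, replicates in label order within a genotype. Points are libraries, and bars are the mean and SD. Atf3, Egr1, Egr2 and Fos show the widest separation, and Jund is the gene whose genotypes overlap.

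Depth ranged from 17290604 to 17799798 fragments on genes among WT libraries and from 17087344 to 18821091 among PGRN KO libraries. The Grn transcript itself was at 168, 161 and 166 FPKM in WT and at 0.242, 0.206 and 0.747 FPKM in PGRN KO, as the labels say. The neutrophil marker genes summed to 58290 to 62300 FPKM per WT library and 59660 to 68520 FPKM per PGRN KO library, with 0 of 10 higher and 2 lower under the deposited scaling, and 2 higher and 0 lower under plain totals or quantile normalization. Markers of other cells were also present and moved with genotype. Promyelocyte markers were higher in 5 of 5 (summed FPKM 129 to 144 in WT against 609 to 670 in PGRN KO). B and plasma cell markers were higher in 4 of 4 tested (24.4 to 26.6 against 71.6 to 86.8), basophil and eosinophil markers in 5 of 6 (3.06 to 3.799 against 13.9 to 18.5) and erythroid markers in 2 of 2 tested (0.989 to 2.74 against 4.57 to 5.48). Dendritic cell markers were lower in 3 of 3 tested (129 to 140 against 79.2 to 89.5). These 3 were H2-Aa, H2-Ab1 and Cd74, all genes of antigen presentation by MHC class II. Of 9 tested monocyte and macrophage markers 4 were lower and 1 higher (574 to 581 against 580 to 734), with Mertk at 0 in every library, and of 3 tested T and NK cell markers 1 was higher (2.74 to 3.60 against 7.77 to 9.21), with Cd3e at 0. Ms4a1, Cd8a, Ncr1, Flt3, Siglech and Klf1, which define some of these cells, were among the markers under the filter on low values. Among 7 heat shock genes, which summed to 336 to 343 against 298 to 325, 2 were lower and 5 were not called. The 2 were Hspa1a and Hspa1b, at 53.4% and 58.1% of their WT means. The mitochondrial share of fragments was 0.375% to 0.414% in WT against 0.421% to 0.522% in PGRN KO (exact permutation p = 0.10, the smallest that 3 against 3 libraries allow). These values run alongside every result below, and their part in it was not tested. In bulk RNA, fewer cells of a type and less RNA per cell cannot be told apart.

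The promoters of the 4 called genes with the smallest adjusted p that could be printed are shown because immediate early genes are known to respond through elements close to their start sites. Each run is 300 bases, from 250 bases before the RefSeq start site, on GRCm38.p6 and written in the gene's own direction. They are chr1:191183284-191183583 (minus strand) for Atf3, chr12:85473640-85473939 (plus strand) for Fos, chr10:67537619-67537918 (plus strand) for Egr2 and chr4:95052173-95052472 (minus strand) for Jun. Capitals mark the motif matches described in the next paragraph.
Atf3: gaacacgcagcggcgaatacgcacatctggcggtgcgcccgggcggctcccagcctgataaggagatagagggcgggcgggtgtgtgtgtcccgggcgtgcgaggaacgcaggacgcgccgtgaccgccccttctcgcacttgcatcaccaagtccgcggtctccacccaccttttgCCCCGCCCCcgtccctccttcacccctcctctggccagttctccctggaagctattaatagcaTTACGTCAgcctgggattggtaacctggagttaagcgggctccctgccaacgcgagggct
Fos: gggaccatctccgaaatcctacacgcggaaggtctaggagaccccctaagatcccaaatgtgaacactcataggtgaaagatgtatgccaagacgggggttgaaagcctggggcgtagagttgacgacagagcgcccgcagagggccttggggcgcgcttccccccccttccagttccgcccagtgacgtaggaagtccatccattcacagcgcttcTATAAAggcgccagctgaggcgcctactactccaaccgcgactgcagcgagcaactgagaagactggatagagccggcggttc
Egr2: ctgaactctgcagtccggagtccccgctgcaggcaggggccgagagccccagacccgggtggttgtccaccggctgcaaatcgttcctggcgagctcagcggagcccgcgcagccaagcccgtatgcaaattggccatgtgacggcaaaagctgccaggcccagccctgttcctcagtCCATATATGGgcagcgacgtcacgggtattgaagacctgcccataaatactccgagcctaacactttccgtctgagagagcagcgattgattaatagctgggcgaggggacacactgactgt
Jun: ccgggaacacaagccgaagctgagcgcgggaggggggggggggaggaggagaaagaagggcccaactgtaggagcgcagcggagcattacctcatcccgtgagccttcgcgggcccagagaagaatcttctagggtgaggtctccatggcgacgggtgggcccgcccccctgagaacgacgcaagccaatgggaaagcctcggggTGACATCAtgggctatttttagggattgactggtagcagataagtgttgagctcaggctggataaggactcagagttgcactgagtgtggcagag

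The Egr2 window held a CArG box, the binding element of serum response factor, at positions -72 to -63 from its start site, and 1.63% of 32851 RefSeq windows of the same length held one. The Fos window held TATAAA at -33 to -28 (13.6% of windows). The Atf3 window held GGGGCGGGG, an element of the Sp1 type, on the opposite strand at -73 to -65 (11.4% of windows). It also held TTACGTCA, a variant of the cyclic AMP response element, at -10 to -3 (0.499%). The Jun window held TGACATCA, an AP-1-like variant, at -45 to -38 (3.62%). These last 2 motifs were added to the search after the windows had been read. Both strands were searched, and no match in the printed windows overlapped another. Of the 9 genes with a RefSeq window, none held TGANTCA, the AP-1 consensus (7.81% of windows), TGACGTCA, the full cyclic AMP response element (1.79%), or GCGTGGGCG, the EGR consensus (0.612%). Fosb held TGACGCAA at -60 to -53 (0.49%) and Junb held TATAAA at 1 to 6 from a RefSeq start that lies upstream of the GENCODE M21 start. The RefSeq start of Jund (70697739) also lies upstream of its GENCODE start (70698949), and that of Fosl2 (32136472) downstream of its GENCODE start (32135801). The windows of Jund and Fosl2 do not cover those GENCODE starts, so the absence of motifs does not extend to them. A match is a run of letters in this window and says nothing of binding in these cells.

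Fos encodes the founding member of the Fos family and is the classical target of serum response factor and ERK signalling. Fos (chr12:85473890-85477273, plus strand) was at 45.8, 42.8 and 43.6 FPKM in WT and at 27.4, 25.8 and 24.4 FPKM in PGRN KO. Its highest PGRN KO library lay well under its lowest WT library, with 1102 to 1828 fragments behind each value. The log2 fold change was -0.75 ± 0.06 (SE, n = 3 per genotype, 95% interval -0.88 to -0.62, adjusted p = 0.00058 by limma). It was called in all 17 alternative analyses, at -0.79 to -0.63, although median-of-ratios scaling among them left the deposited values unchanged.

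Fosb, whose product pairs with Jun proteins much as Fos does, was at 8.27, 8.76 and 8.31 FPKM in WT and at 8.18, 7.93 and 6.64 FPKM in PGRN KO. Its position is chr7:19302696-19310051 on the minus strand. The genotypes did not overlap, but the gap between the lowest WT and the highest PGRN KO library was small beside the spread within PGRN KO. Fosb differed by -0.14 ± 0.08 on the log2 scale (95% interval -0.33 to 0.05, adjusted p = 0.28 by limma), and Fosb was called in 0 of 17 alternatives.

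Fosl2 encodes Fra-2, a Fos protein without a strong transactivation domain. Fosl2 (chr5:32135801-32157842, plus strand) was at 30.5, 31.7 and 30.8 FPKM in WT and at 27.8, 25.8 and 22.7 FPKM in PGRN KO. All 3 PGRN KO libraries were below all WT libraries, with more spread in PGRN KO (coefficient of variation 9.98%) than in WT (2.03%). The log2 fold change was -0.28 ± 0.07 (95% interval -0.46 to -0.11, adjusted p = 0.043 by limma). That call held without PGRN KO replicate 4 (adjusted p = 0.027) and was lost without any other single library, at an adjusted p of 0.103, 0.137 and 0.110 without WT replicates 1, 2 and 3 and of 0.111 and 0.0513 without PGRN KO replicates 5 and 6.

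Jun encodes c-Jun, the main substrate of JNK and the partner of Fos in the classical AP-1 dimer. Jun (chr4:95049034-95052222, minus strand) was at 232, 223 and 203 FPKM in WT and at 159, 136 and 132 FPKM in PGRN KO. The genotypes were clearly apart, although WT replicate 3 was the lowest of its group. Jun fell by 0.62 ± 0.08 on the log2 scale (95% interval -0.82 to -0.42, adjusted p = 0.0048 by limma), and Jun was called in all 17 alternatives at -0.70 to -0.50. The noncoding gene Junos lies antisense to Jun, and no source used here says that counting used strand, so shared reads cannot be told apart. Junos was at 3.76 ± 0.23 FPKM in WT and 3.82 ± 0.05 FPKM in PGRN KO (SD, n = 3, adjusted p = 0.87 by limma).

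Junb, which encodes a Jun protein that can hold back c-Jun at some promoters, was the most abundant of the 10 genes in WT. Junb (chr8:84974484-84978718, minus strand) was at 1254, 1257 and 1154 FPKM in WT and at 1023, 814 and 737 FPKM in PGRN KO. PGRN KO replicate 4 lay closer to the WT libraries than the other two did, and the coefficient of variation was 17.2% in PGRN KO against 4.83% in WT. The log2 fold change was -0.52 ± 0.12 (95% interval -0.80 to -0.24, adjusted p = 0.027 by limma). Without PGRN KO replicate 4 the log2 fold change was -0.66 (adjusted p = 0.0055). The call was lost without any other single library, at an adjusted p of 0.0894, 0.0992 and 0.0669 without WT replicates 1, 2 and 3 and of 0.101 and 0.0612 without PGRN KO replicates 5 and 6. The end of Prdx2, on the opposite strand, overlaps Junb, and Prdx2 was at 6.16 ± 0.52 FPKM in WT and 6.66 ± 0.32 FPKM in PGRN KO (SD, n = 3, adjusted p = 0.39 by limma).

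Jund encodes the Jun protein that resting cells hold at a steady level. Jund (chr8:70698949-70700616, plus strand) was at 87.3, 80.9 and 68.1 FPKM in WT and at 85.4, 73.4 and 60.1 FPKM in PGRN KO. The genotypes overlapped, with a like spread in both (12.5% in WT and 17.3% in PGRN KO as coefficients of variation). Jund differed by -0.12 ± 0.14 on the log2 scale (95% interval -0.46 to 0.22, adjusted p = 0.63 by limma), and it was 0.0026 under plain totals, with the sign turned, so no direction is given.

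Atf3 encodes a bZIP factor induced by stress and by Toll-like receptor signals, which is known to restrain inflammatory cytokine genes in phagocytes. Atf3 (chr1:191170296-191218039, minus strand) was at 377, 374 and 372 FPKM in WT and at 207, 192 and 200 FPKM in PGRN KO. The libraries of a genotype were close to one another, with a coefficient of variation of 0.666% among WT and 3.95% among PGRN KO libraries, and the genotypes were far apart. The log2 fold change was -0.90 ± 0.04 (95% interval -1.002 to -0.802, adjusted p = 0.00010 by limma), and it stayed between -0.93 and -0.78 in the 17 alternatives, with a call in each.

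Egr1 encodes a zinc finger factor that reads out ERK activity through serum response elements. Egr1 (chr18:34859823-34864984, plus strand) was at 39.9, 39.9 and 41.1 FPKM in WT and at 22.4, 23.1 and 18.9 FPKM in PGRN KO. Every PGRN KO library was far below every WT library. Egr1 fell by 0.88 ± 0.08 on the log2 scale (95% interval -1.07 to -0.70, adjusted p = 0.00097 by limma), with a call in all 17 alternatives.

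Egr2, a relative of Egr1 that takes part in myeloid gene programmes, was the least abundant of the 10 genes in both genotypes. Egr2 (chr10:67535475-67542188, plus strand) was at 7.74, 7.41 and 8.09 FPKM in WT and at 3.96, 4.46 and 3.97 FPKM in PGRN KO, from 240 to 471 fragments per library. The genotypes were well apart despite these low counts, which alone give a coefficient of variation of 6.45% in the shallowest library. The log2 fold change was -0.77 ± 0.06 (95% interval -0.93 to -0.62, adjusted p = 0.00085 by limma), on a scale whose pseudocount of 1 understates changes at this level, and Egr2 was called in all 17 alternatives.

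Ier3 encodes a small protein tied to cell survival and to NF-κB and ERK signalling, and it is no transcription factor. Ier3 (chr17:35821684-35822923, plus strand) was at 1043, 1036 and 1044 FPKM in WT and at 1031, 991 and 883 FPKM in PGRN KO. The genotypes did not overlap, but PGRN KO replicate 4 lay just under the lowest WT library. Ier3 differed by -0.11 ± 0.06 on the log2 scale (95% interval -0.26 to 0.04, adjusted p = 0.29 by limma), and it was 0.01 under plain totals and 0.02 under quantile normalization, again with the sign turned.

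**Figure D2:**
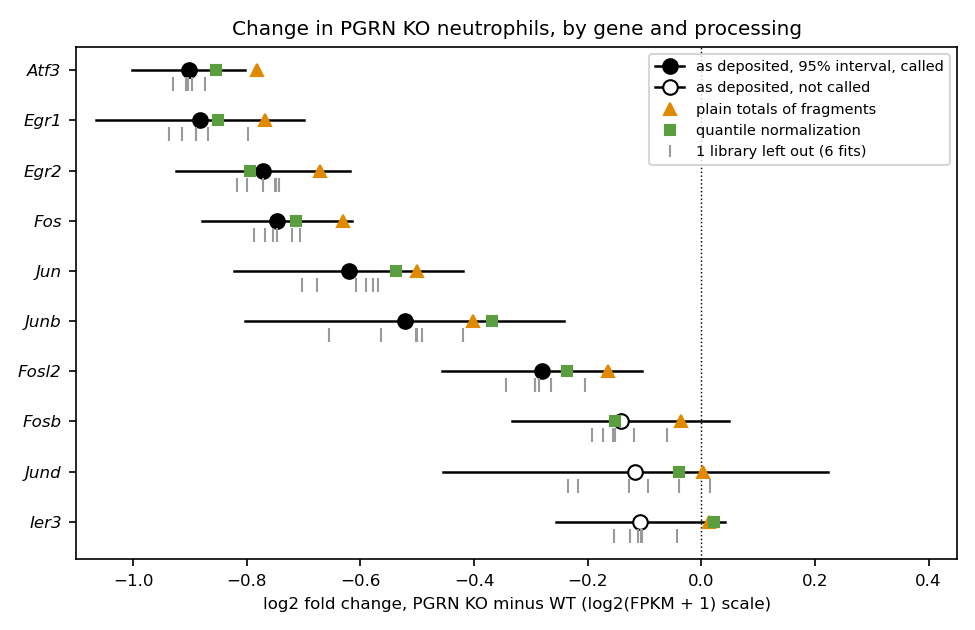
Log2 fold change (PGRN KO minus WT) of each gene. Circles with 95% intervals are the values as deposited (filled when called), triangles the plain totals, squares quantile normalization, and grey ticks the 6 fits that leave out 1 library. Atf3, Egr1, Egr2, Fos and Jun stay on the left under each of these settings, while Jund and Ier3 reach or cross 0.

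The deposited scaling bears on all 10 genes in the same direction. Library totals were 1.03 to 1.04 times the library size by which the authors divided in WT and 0.946 to 0.958 times in PGRN KO. Plain totals thus raised each PGRN KO value relative to WT, and the median of the 10 genes was then -0.45. Between 5 and 7 of the 10 genes were called lower in the 17 alternatives, and none was called higher in any. Median-of-ratios scaling, counted among the 17, repeated the main fit and adds no check. Within PGRN KO, replicate 6 was the lowest library in 8 of the 10 genes (34.8% of the 3482 genes whose mean FPKM reached 10), and replicate 4 was the highest in 8 of 10 (36.1%).

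Levels were ranked by FPKM, which is scaled to gene length. From high to low, the order in WT was Junb, Ier3, Atf3, Jun, Jund, Fos, Egr1, Fosl2, Fosb and Egr2, and no neighbours in that order overlapped between libraries. In PGRN KO, Ier3 (968 ± 76 FPKM) came before Junb (858 ± 148 FPKM), and these overlapped. Fos (25.9 ± 1.5 FPKM), Fosl2 (25.4 ± 2.5 FPKM) and Egr1 (21.5 ± 2.3 FPKM) followed Jund as a group in which neighbours overlapped (SD, n = 3), so these neighbours were not separated across libraries. Within each library, the FPKM of Egr1 lay above that of Fosl2 in all 3 WT libraries and below it in all 3 PGRN KO libraries. This crossing depends on the gene length used. The FPKM rest on 9680 exonic bases for Fosl2, whose principal transcript has 6537, and on 4484 for Egr1, the same as its transcript. A shorter length would raise Fosl2 in every library, so no switch of order is claimed.

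Because a ratio of genes within a library does not depend on how the library was scaled, the makeup of the AP-1 families was also compared. The summed FPKM of a family and the FPKM of single genes, given beside the shares, do depend on that scaling. The Fos family summed to 183, 180 and 182 FPKM in WT and to 152, 143 and 126 FPKM in PGRN KO, without overlap. Fosl1, the Fra-1 gene, which is the largest part of that family here, was at 98.7, 96.7 and 99.1 FPKM in WT and at 88.3, 83.8 and 72.0 FPKM in PGRN KO (log2 fold change -0.27 ± 0.08, adjusted p = 0.051 by limma, not called). Fos made up 25.0%, 23.8% and 24.0% of the family in WT and 18.1%, 17.99% and 19.4% in PGRN KO. The shares of Fosl1 (54.0% to 58.0%), Fosl2 (17.1% to 18.1%) and Fosb (4.65% to 5.40%, means of WT and PGRN KO) were each higher in every PGRN KO library. In these libraries, PGRN KO cells held a smaller part of their Fos family FPKM as Fos and a larger part as its other members. Shares add up to the whole, so the larger shares of the others are the other side of the smaller share of Fos. The mean FPKM of Fosl1, Fosl2 and Fosb were themselves lower in PGRN KO, with only Fosl2 called. Shares also depend on the gene lengths behind the FPKM.

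In the Jun family, the share of Jund was 5.55%, 5.19% and 4.78% in WT and 6.74%, 7.17% and 6.47% in PGRN KO, without overlap. The share of Junb was 80.4% in WT and 79.8% in PGRN KO on average, and these overlapped. Jun took 14.4% and 13.4% on average. The sum of the family was 8.36 ± 0.46 times that of the Fos family in WT and 7.63 times in PGRN KO, again with overlap. Jun relative to Jund differed by -0.51 on the log2 scale and Fos relative to Fosb by -0.61, with no overlap of the ratios between genotypes in either case. Atf3 relative to Ier3 differed by -0.80 and Atf3 relative to Atf4, another stress-induced bZIP gene, by -0.92. Egr1 and Egr2 each differed by -1.09 relative to Egr3, a further EGR gene, whereas the log2 ratio of Egr1 to Egr2 was 2.38 in both genotypes (exact permutation p = 1.0). Each of these differences except those with overlap and that of Egr1 to Egr2 had an exact two-sided permutation p of 0.10, the smallest that 3 against 3 allow, and 0.119 after Benjamini-Hochberg adjustment over 19 such quantities. Jund, Fosb, Ier3, Atf4 and Egr3 were not called in the fit over all genes. Ratios of a called gene to one of them restate those calls on the same values and are no separate result.

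**Figure D3:**
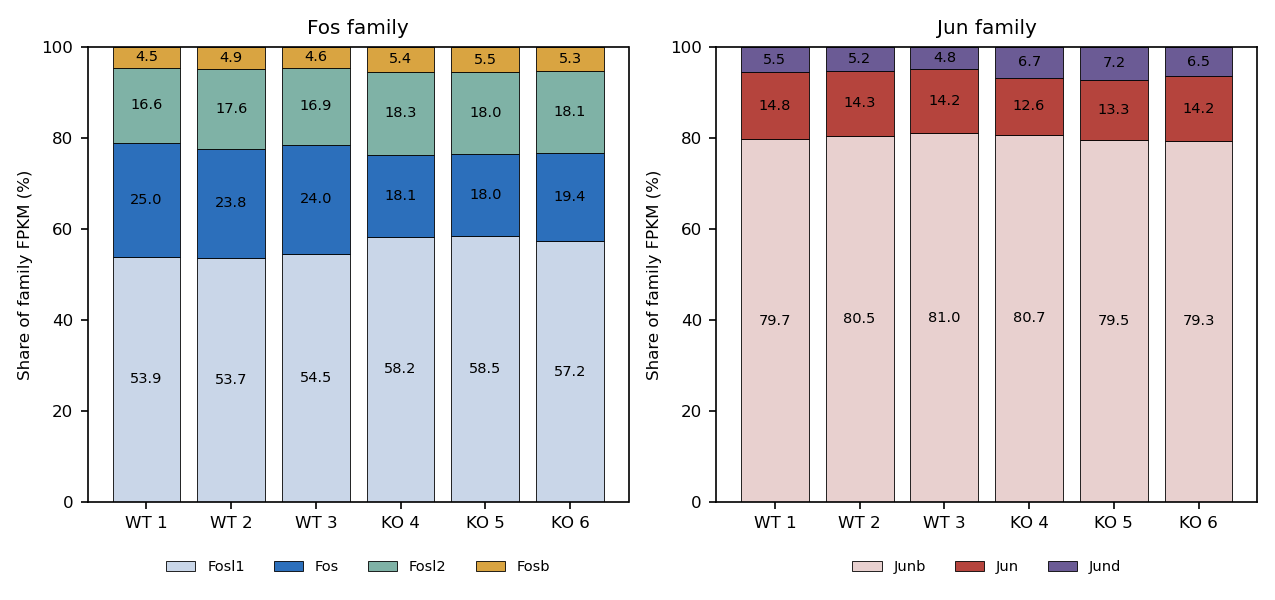
Share (percent) of summed FPKM held by each gene of the Fos family (left) and Jun family (right) in the 6 libraries. Fos takes 23.8% to 25.0% of its family in WT against 17.99% to 19.4% in PGRN KO, and the Jund share is larger in each PGRN KO library.

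Other genes that can pair with AP-1 proteins or form part of the network were examined next. Over all genes tested, 9.95% were called lower and 7.94% higher. Of 12 tested further bZIP partners, 6 were called lower and 0 higher (median log2 fold change -0.28). They included the Maf family genes Mafk (-0.66, adjusted p = 0.0014 by limma), Maf (-0.64, adjusted p = 0.0023) and Maff (-0.50, adjusted p = 0.0094), as well as Batf and Jdp2. Atf4, the effector of the integrated stress response, was at 279 ± 6 FPKM in WT and 282 ± 10 FPKM in PGRN KO (SD, n = 3, adjusted p = 0.82 by limma). Among the 43 tested genes that the deposited table assigns to the bZIP family, 14 were lower (32.6%) and 1, Nfe2, which drives erythroid and megakaryocyte genes, was higher. Leaving out the 7 bZIP genes of the set of 10, 9 of 36 were lower (25.0%). Over the 719 tested genes of all transcription factor families in the table, 11.0% were lower, and of the 317 zinc finger genes of the C2H2 type, to which Egr1 and Egr2 belong, 5.05% were. These family shares were looked up with the values of the 10 genes known. They were not matched for expression level, and no test was made on them.

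**Figure D4:**
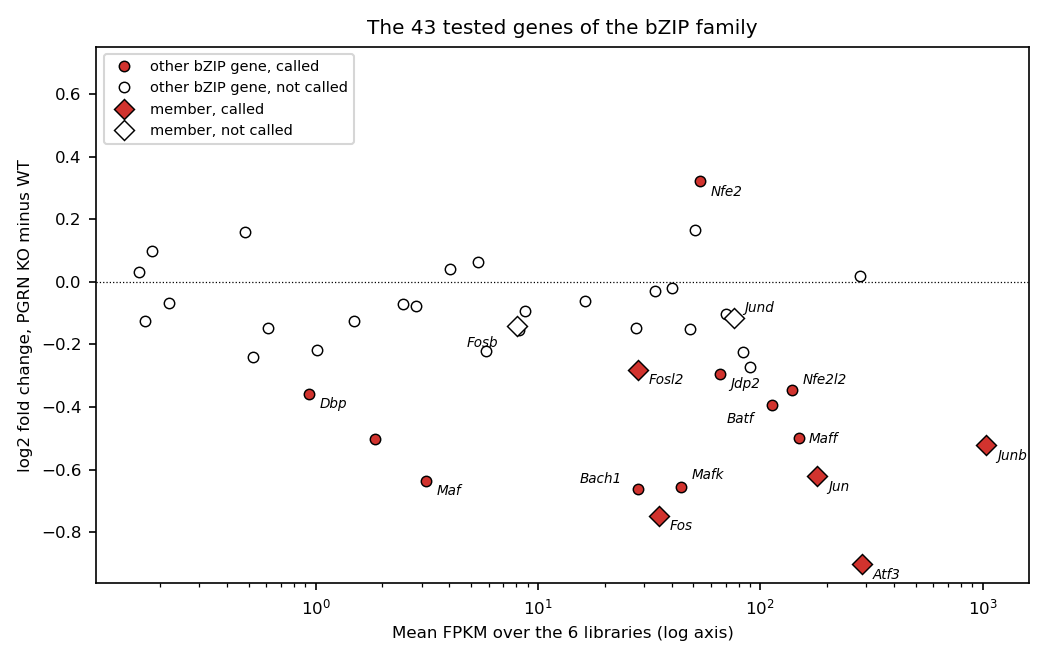
Log2 fold change against mean FPKM (log axis) of the 43 tested bZIP genes. Diamonds are the 7 bZIP genes of the set described here and circles the other bZIP genes, filled red when called. The 14 genes called lower spread from the lowly expressed Dbp to Junb, and Nfe2 is the 1 gene called higher.

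Other immediate early genes were counted in the same way. Of 22 tested, 13 were called lower and 0 higher, with a median log2 fold change of -0.39. The shares over all genes tested were 9.95% lower and 7.94% higher. Those with the smallest adjusted p were the polo-like kinase genes Plk3 (234, 227 and 233 FPKM in WT and 141, 130 and 118 FPKM in PGRN KO) and Plk2, the small GTPase gene Rhob and the GTP-binding protein gene Gem. Their log2 fold changes were -0.83, -0.63, -0.59 and -1.18, with an adjusted p of 0.00068, 0.0014, 0.00077 and 0.0019 by limma. Of the further EGR genes, Egr3 was at 10.1 ± 0.7 FPKM in WT and 11.5 ± 0.7 FPKM in PGRN KO (SD, n = 3, log2 fold change 0.16, not called), and Egr4 was at 0 in every library. The genes whose centred log2 profile over the 6 libraries lay nearest to that of Fos, among the 3474 genes outside the set of 10 whose mean FPKM reached 10, were Pdzk1ip1, Dgkz and Plk3 (root mean square distance 0.0298, 0.0313 and 0.0521 log2 units). Those nearest to Egr1 were Plk3, Hyou1 and Csrnp1 (0.0571, 0.0731 and 0.0847). With 2 genotypes and 6 libraries, this likeness rests mostly on the genotype difference.

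The genes that act upstream were taken as a further list, to be read beside the 9.95% lower and 7.94% higher over all genes tested. Of 12 tested genes for serum response factor, CREB-type and ternary complex factors, and their cofactors, 0 were higher and 2 were lower (median log2 fold change -0.08). Those 2 were Nab1 (-0.31, adjusted p = 0.015 by limma) and Nab2 (-0.35, adjusted p = 0.024), which encode corepressors that bind EGR proteins, and under plain totals 0 of the 12 were lower and 2 were higher. Srf itself was at 18.1 ± 0.5 FPKM in WT and 19.8 ± 1.0 FPKM in PGRN KO (SD, n = 3, not called). Of 22 tested MAP kinase genes, 3 were higher and 2 were lower, with a median log2 fold change of -0.0026, and under plain totals 6 were higher and 2 lower (median 0.09). The ERK kinase gene Mapk3 (0.20, adjusted p = 0.020) and the p38 genes Mapk13 (0.42, adjusted p = 0.0050) and Mapk14 (0.25, adjusted p = 0.012) were higher, and Map2k3 (-0.26, adjusted p = 0.0077, all by limma) was among those lower. Transcript levels of kinases say nothing of their phosphorylation, which was not analysed here.

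Genes with well-known AP-1 or EGR sites moved in both directions. Of 18 tested, 8 were lower and 1 was higher (median log2 fold change -0.25), beside 9.95% lower and 7.94% higher over all genes tested. The lower genes with the smallest adjusted p were Thbs1, which encodes the matrix protein thrombospondin 1 (176 ± 12 FPKM in WT and 71.9 ± 3.5 FPKM in PGRN KO, SD, n = 3, log2 fold change -1.28), Hmox1, which encodes heme oxygenase (-0.42), the prostaglandin synthase gene Ptgs2 (-0.64) and the urokinase gene Plau (-0.56). Their adjusted p values by limma were 0.00014, 0.0016, 0.0023 and 0.0031. Mmp9, which encodes a gelatinase of neutrophil granules, was higher (147 ± 3 FPKM in WT and 175 ± 12 FPKM in PGRN KO, log2 fold change 0.25, adjusted p = 0.022 by limma). Mmp8, also on the neutrophil marker list, was at -0.45 (adjusted p = 0.037 by limma). Il1b and Tnf were not called, at log2 fold changes of 0.07 and -0.01. Under plain totals, 5 of the 18 were lower and 1 was higher.

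**Figure D5:**
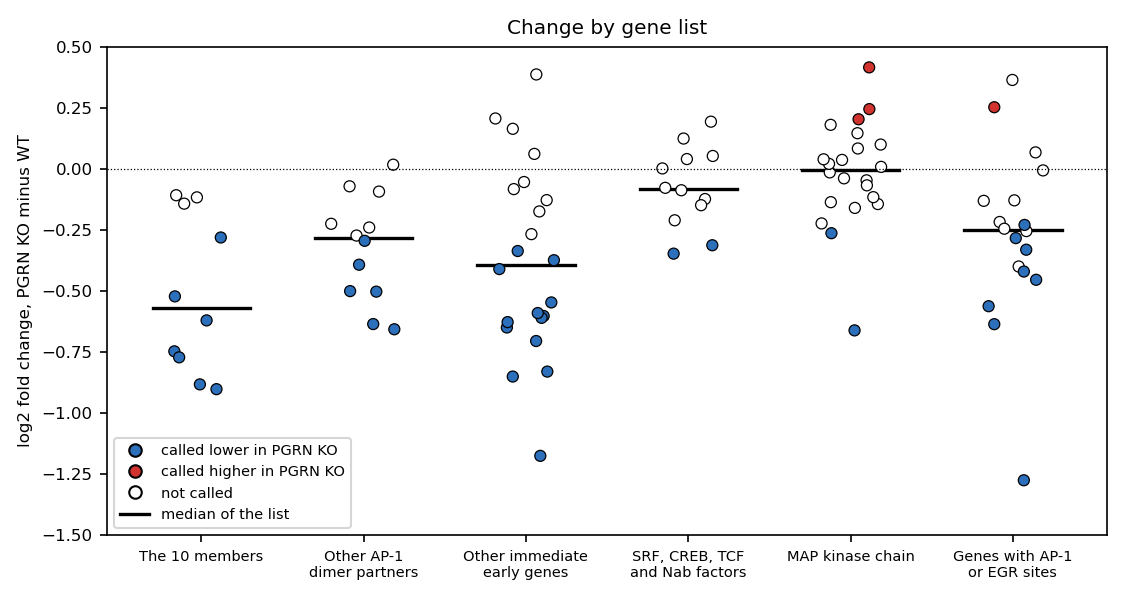
Log2 fold change (PGRN KO minus WT) of each tested gene in 6 lists. Blue points are called lower, red points called higher, white points not called, and bars are list medians. The medians run from -0.57 for the 10 genes to -0.0026 for the MAP kinase genes.

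The 10 genes have few exons. In GENCODE M21, the principal transcripts of Jun, Junb and Jund have 1 exon, those of Egr1, Egr2 and Ier3 have 2, and those of Fos, Fosb, Fosl2 and Atf3 have 4, against a median of 9 over 11010 tested coding genes. Their genomic spans ran from 1240 bases (Ier3) to 47744 bases (Atf3), and those of Atf3 and Fosl2 (22042 bases) were above the median of 22036.5 bases over the same coding genes. Their 3′ UTRs held ATTTA, the core of AU-rich elements that shorten the life of messages, between 1 time (Fosb and Jund) and 8 times (Fosl2), and 6 of the 10 genes (60.0%) held at least 3, against 33.7% of tested coding genes. Among the 3 genes that were not called, Ier3 held 5 copies in a 3′ UTR of 613 bases, and Fosb and Jund held 1 each. Over all tested coding genes the share called lower was 9.34% with no copy, 11.8% with 1 or 2, 14.4% with 3 to 5 and 12.9% with 6 or more. The share called higher in the same classes was 11.3%, 8.49%, 6.26% and 3.85%. Longer 3′ UTRs hold more copies, and the median length in these classes was 328, 892, 1718 and 3160 bases. That median was 1193 bases for the 10 genes and 934 bases over tested coding genes. Copy number was not adjusted for length. Among tested coding genes with at most 4 exons, 11.4% were called lower, against 11.6% of all.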

How the data were processed

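Poly-A RNA from 6 neutrophil libraries was sequenced in paired-end mode. The authors mapped filtered reads and deposited FPKM values for 54532 genes. The submitters' processing notes name HISAT2 2.0.5, featureCounts 1.5.0-p3, DESeq2 1.20.0, mm10 and GRCm38, whereas the study's methods name HTSeq for the values. FPKM times gene length gave whole fragments within 0.05 for all values above 0, which returned the depth per library. The authors' library sizes, rather than plain totals, underlie the FPKM. Median-of-ratios factors, which take the median over genes of each library's ratio to the mean library, were 1 for the FPKM of every library. For fragments they ran from 0.9415 (WT replicate 2) to 1.1096 (PGRN KO replicate 6). The deposited FPKM were thus already on a median-of-ratios scale.

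Values were transformed to log2(FPKM + 1), genes with a mean FPKM under 0.1 were left out, and genotypes were compared over 14807 genes in R 4.3.3 by limma 3.58.1, using lmFit and a trended eBayes, two-sided, with p-values adjusted by the Benjamini-Hochberg method. On this scale the changes of low genes are understated. Single values were compared by exact permutation in scipy 1.17.1. The fit was tested on simulated data for this comparison, where 25 and 15 of 50 genes at folds of 0.5 and 0.667, and 16 and 32 of 50 at folds of 1.5 and 2, were called, and 5 of 93 calls (5.4%) were false. Every simulated gene had the same dispersion of 0.004. Some real genes varied more, such as Junb with a coefficient of variation of 17.2% in PGRN KO. The simulated false share may therefore not carry over to these libraries. Counts of replicate pairs differed beyond sampling noise (chi-square per degree of freedom 2.83 to 11.7), so each library counted as 1 replicate.

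Members and lists were chosen with earlier results of these data known. Named genes were all 10 members, Grn, up to 4 called genes per list and direction with the smallest adjusted p, and the 3 genes nearest in profile to Fos and to Egr1. Other list genes, the antisense and overlapping genes, and the bZIP family genes were named after their values were seen. Promoters are RefSeq windows and transcripts are from GENCODE M21. Alternatives were 2 pseudocounts, 2 filters, 3 scalings, 2 variance settings, 2 voom fits on fragments, and each of the 6 libraries left out. Intervals cover the spread between these libraries. A few genes that the rule would name are not reported here.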

Additional observations from a re-analysis of the deposited data

How the results depend on the processing

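Fos, Jun, Egr1, Egr2 and Atf3 were called lower in all 17 alternatives. Fosl2 was called in 7 and Junb in 9 of the 17, and Fosb, Jund and Ier3 in none. Median-of-ratios scaling, counted among the 17, had a factor of 1 for the FPKM of every library. Its calls were therefore those of the main fit. The sign turned for Ier3 under quantile normalization (0.0217), plain totals (0.0128) and voom with plain totals (0.0119), and for Jund under plain totals (0.00262), voom with plain totals (0.000499) and without PGRN KO replicate 6. Over the fits with 1 library left out, Jund ran from -0.24 to 0.0145. None of the 10 genes was called higher in any setting. The cause of these changes was not tested, beyond that plain totals raise PGRN KO relative to WT, moving the median of all genes by 0.121 with voom.

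Over all genes, 2648 were called, 44.4% of them higher. On recovered fragments, voom called 3621 with median-of-ratios scaling and 4236 with plain totals, and plain totals with the FPKM fit called 3083, of which 69.7% were higher. Leaving out 1 library gave 1322 (without PGRN KO replicate 5) to 2161 (without PGRN KO replicate 4) calls, from fewer samples. The fits without WT replicates 1, 2 and 3 gave 1612, 1335 and 1662. No paired analysis was possible because the genotypes share no replicate numbers. With 3 libraries per genotype, a gene that was not called is not shown to be equal.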
